A study of Oryctolagus cuniculus with 12 samples.

Results

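The RNA of control rabbit cornea was described from the 3 control libraries of a series of 12, each made from whole cornea of Oryctolagus cuniculus. The libraries were taken by their control label, with earlier results of these data known, and the 9 libraries of the illuminated groups were not used. Rabbits were 6 months old and fed a normal diet, per the labels, and no genotype, strain or other agent is named. Exposure to light for 6 weeks is written as the treatment of all samples, so the same entry stands on the controls, and the light they received is not given in the sources used here. Whether each control library stands for its own rabbit is not stated either, so every SD below (n = 3 libraries) is the spread between libraries and may be technical. Values are FPKM, that is, fragments per kilobase of transcript per M (mega) counted fragments, unless another scale is named. FPKM is scaled by transcript length, so levels can be compared between genes. Where 3 values follow a gene or a group, they are those of control libraries 1, 2 and 3 in that order. With 1 group there is no comparison between conditions and no test. The levels and their spread are described as measured.

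The cornea is the transparent front window of the eye. A stratified, non-keratinized epithelium covers it and rests on a basement membrane. Beneath lies a thick stroma, in which keratocytes lay down evenly spaced collagen fibrils bound by keratan sulfate proteoglycans. A single endothelial layer on Descemet's membrane faces the aqueous humour and pumps fluid out of the stroma. Normal cornea lacks blood vessels, and its cells hold unusually large amounts of a few soluble metabolic enzymes, often called corneal crystallins. Since each library is a bulk sample, fewer cells of a type and less RNA per cell cannot be told apart.

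The labelled tissue was matched by its defining markers in all 3 libraries. KRT12 and KRT3, the paired keratins of differentiated corneal epithelium, ranked 1 and 19 among 29076 listed genes by mean FPKM. ALDH1A1, an aldehyde dehydrogenase and corneal crystallin, ranked 9. KERA (keratocan) and LUM (lumican), keratan sulfate proteoglycans of the stroma, ranked 15 and 22. The libraries held 44.4, 56.9 and 46.8 M counts (49.4 ± 6.61 M), and TMM scaling factors lay between 0.981 and 1.01. A mean FPKM of 1 or more was reached by 13281 genes, of which 12241 reached it in every library, and 9809 genes had a count of 0 in all 3. Control 1 had fewer genes at a count of 0 (10772) than controls 2 and 3 (12260 and 12268), and more genes with 1 to 20 counts (2561 against 1039 and 1300). A count of exactly 4 was found for 623 values and the neighbouring counts of 3 and 5 for 214 and 161. A fragment was therefore taken as about 3.82 counts, and the limit that a count of 0 allows, 3 fragments, was 0.258, 0.202 and 0.245 FPKM for a transcript of 1 kilobase. This limit covers counting error only. Control 1 differed most often from the other libraries, and control 2 held lens and rod photoreceptor genes at higher levels, so values are given for each library.

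Corneal RNA was concentrated in few genes. The most abundant gene held 1.89% ± 0.477 of all FPKM, the leading 10 held 9.67% ± 0.818, the leading 40 held 21.3% ± 0.415 and the leading 100 held 34.2% ± 1.09. Of all FPKM, 50% lay in 294 genes and 90% in 5208 genes. At the other end, 6906 genes reached a mean of 10 FPKM, 650 reached 100 and 79 reached 1000. The leading 100 comprised 52 entries for ribosomal proteins, which held 13.5% ± 1.58 of FPKM. They also comprised 7 genes of extracellular matrix (4.30% ± 0.578), 2 keratins (2.32% ± 0.520) and 4 glycolytic enzymes (2.12% ± 0.305). S100 and annexin genes gave 3 entries (1.49% ± 0.197) and lens crystallins another 3 (1.06% ± 0.219). The translation factor EEF1A1 (0.939% ± 0.150) and the antioxidant gene FTH1 (0.242% ± 0.0406) gave 1 each, and 27 fell in no such class. Entries without a symbol were classed by description only for ribosomal proteins, and the other classes rest on symbols. The 27 thus include LOC103344972 (0.638% ± 0.144), described as an S100 protein, and LOC100328910 (0.500% ± 0.0473), described as a glutathione transferase.

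**Figure D1:**
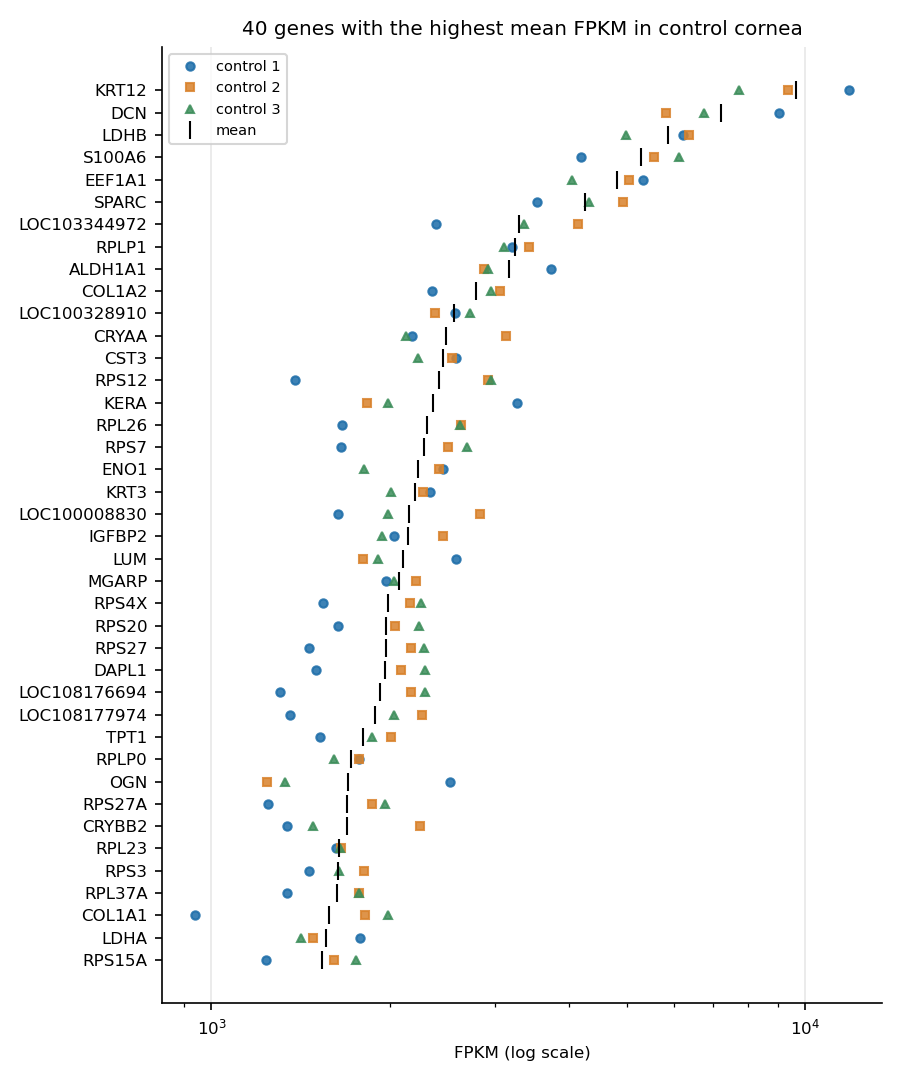
FPKM (log scale) of the 40 genes with the highest mean FPKM, in rank order from the top. Coloured points are control libraries 1, 2 and 3, and the black bar is their mean. KRT12 stands first at a mean of 9645 FPKM, ahead of DCN at 7207, and the ribosomal protein RPS15A closes the list at 1532.

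KRT12 stood at 11858, 9337 and 7739 FPKM, a mean of 9645 ± 2077. DCN, which codes for decorin, a proteoglycan that binds collagen fibrils, followed at 9031, 5829 and 6759.8 FPKM. The ranges of the 2 genes overlapped between libraries, although KRT12 was above DCN within each of them, by a ratio of 1.35 ± 0.231. LDHB, the heart-type subunit of lactate dehydrogenase, stood at 6223, 6374 and 4988 FPKM, and S100A6, a calcium-binding protein, at 4195, 5567 and 6126 FPKM. LDHB was highest in control 2 and S100A6 was highest in control 3, and their ranges overlapped as well. EEF1A1, the elongation factor that brings aminoacyl-tRNA to the ribosome, stood at 5324, 5055 and 4052 FPKM. SPARC, a collagen-binding secreted protein, stood at 3527, 4924 and 4329 FPKM. Apart from KRT12 above DCN, the order of these neighbours in the ranking thus changed between libraries, as the plot of the 40 leading genes shows. Other genes of the leading 40 with general roles included CST3 (cystatin C, a secreted inhibitor of cysteine proteases) at 2452 ± 193 FPKM and TPT1 (translationally controlled tumour protein) at 1796 ± 247 FPKM. IGFBP2, a secreted binding protein of insulin-like growth factors, stood at 2140.4 ± 277 FPKM. MGARP, a mitochondrial protein abundant in corneal tissue, stood at 2069.6 ± 128 FPKM, and DAPL1, a relative of the death-associated protein DAP, at 1956 ± 410.0 FPKM.

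Several of the most abundant entries carry no gene symbol and are uncertain. LOC103344972 (gene ID 103344972), whose deposited descriptions name both S100-A4 and S100-A6, stood at 2388, 4146 and 3366 FPKM. Its reads may be shared with S100A6. LOC100328910 (gene ID 100328910), described as glutathione S-transferase alpha I, a detoxifying enzyme of a family of near-identical copies, stood at 2574, 2383 and 2725 FPKM. LOC100008830 (gene ID 100008830), described as cathepsin L1, a lysosomal protease, stood at 1636, 2832 and 1983 FPKM, and was lowest in control 1. LOC108176694 (gene ID 108176694), an uncharacterized protein, ranked 28 with 1303, 2168 and 2288 FPKM, again lowest in control 1. The remaining unnamed entry among the leading 40, LOC108177974 (gene ID 108177974), is described as ribosomal protein L23a and is taken up with the ribosomal genes.

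Epithelial genes held 3.43% ± 0.587 of FPKM in a list of 17 listed genes, all of which reached a mean of 1 FPKM. In the separate libraries the share was 4.09%, 3.24% and 2.96%, highest in control 1. KRT3 stood at 2331, 2268 and 2007 FPKM, and KRT12 exceeded it by a ratio of 4.35 ± 0.649. KRT5, the keratin of basal cells, stood at 353, 299 and 333 FPKM, and KRT3 exceeded it by a ratio of 6.74 ± 0.790. These 3 keratins kept the same order in every library. TKT, the transketolase of the pentose phosphate pathway and a corneal crystallin, stood at 1202, 1616 and 1462 FPKM. AQP5, the water channel of the corneal epithelium, stood at 1336, 1249 and 1255 FPKM and differed little between libraries. CLU (clusterin, a secreted chaperone) stood at 765, 626 and 597 FPKM and PERP (a desmosomal membrane protein) at 787, 464 and 415 FPKM, both highest in control 1. SFN (stratifin, an epithelial 14-3-3 protein) stood at 421, 586 and 539 FPKM and was lowest in control 1.

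All 35 keratin genes together held 3.02%, 2.28% and 2.02% of FPKM, and 14 of them reached a mean of 1 FPKM. KRT12 and KRT3 were ahead of the rest by a wide margin, as the panels of gene families show. KRT4, a keratin of conjunctiva and other moist epithelia, stood at 55.3, 136 and 98.98 FPKM, lowest in control 1. KRT19, found in simple and limbal epithelium, stood at 59.6, 49.03 and 74.96 FPKM, and KRT78 at 42.1, 34.8 and 47.5 FPKM. Among keratins of cornified skin, KRT1 stood at 1.94, 3.44 and 2.38 FPKM and KRT10 at 14.1, 26.5 and 25.3 FPKM, and KRT2 was at a count of 0 in all 3 libraries. Among 22 genes of the cornified envelope, FLG (filaggrin), LOR (loricrin) and CNFN (cornifelin) also had a count of 0 throughout. The cross-linked scaffold proteins PPL (periplakin) and EVPL (envoplakin) stood at 150.3 ± 46.4 and 114 ± 22.8 FPKM. S100A11, a calcium-binding protein of the envelope, stood at 492, 711 and 569.8 FPKM, and CSTB, a cysteine protease inhibitor, at 146, 210.3 and 212 FPKM.

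Basal and limbal markers were uneven over the libraries. The 12 listed genes held 0.188%, 0.126% and 0.193% of FPKM. KRT14, ABCG2, GPHA2, CXCL14 and IFITM3 belong to the list but had no entry, so they are not in this share. Of the 11 that reached a mean of 1 FPKM, 9 were lowest in control 2, whereas over all genes with that mean 37.3% were. COL17A1, the transmembrane collagen of hemidesmosomes, stood at 326, 191 and 367 FPKM. TP63, the transcription factor of basal epithelial cells, stood at 33.9, 19.2 and 28.7 FPKM. ITGB4, the integrin subunit of hemidesmosomes, stood at 57.6, 42.3 and 67.5 FPKM, and LAMB3, a laminin chain of the epithelial basement membrane, at 34.6, 34.7 and 66.3 FPKM. COL17A1, TP63 and ITGB4 were lowest in control 2, while LAMB3 was alike in controls 1 and 2 and high in control 3. KRT15, a limbal keratin, went another way at 5.97, 9.97 and 16.5 FPKM, lowest in control 1, with a ratio of highest to lowest of 2.76. ABCB5, a transporter used as a limbal stem cell marker, had a count of 0 in all 3 libraries.

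Junction genes were led by desmosomes, the anchoring contacts of stratified epithelium. The desmosome list held 0.318% ± 0.0405 of FPKM, tight junctions 0.103% ± 0.00478 and gap junctions 0.0761% ± 0.0131. DSC2 (desmocollin 2) stood at 181, 153 and 207 FPKM, DSG1 (desmoglein 1) at 228, 136 and 174 FPKM and DSP (desmoplakin) at 149, 154 and 173 FPKM. JUP, the plakoglobin that links cadherins to the cytoskeleton, stood at 147, 181 and 166 FPKM, and DSG4 had a count of 0 in all libraries. CLDN4, a claudin of tight junctions, stood at 179, 259 and 178 FPKM and CLDN7 at 81.7, 86.2 and 82.9 FPKM. Among connexins, GJA1 (connexin 43) was the most abundant at 329, 208 and 255 FPKM, followed by GJB2 (connexin 26) at 33.8, 45.7 and 49.2 FPKM. The glycocalyx list held 0.138% ± 0.0128 of FPKM. LGALS3, a galectin that binds surface mucins, stood at 525, 501 and 550.5 FPKM. MUC15, a membrane mucin, stood at 56.4, 57.9 and 71.6 FPKM, and MUC4, another membrane mucin, at 65.1, 31.5 and 27.01 FPKM with its high value in control 1. MUC5B, a secreted mucin, was at a count of 0.

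**Figure D2:**
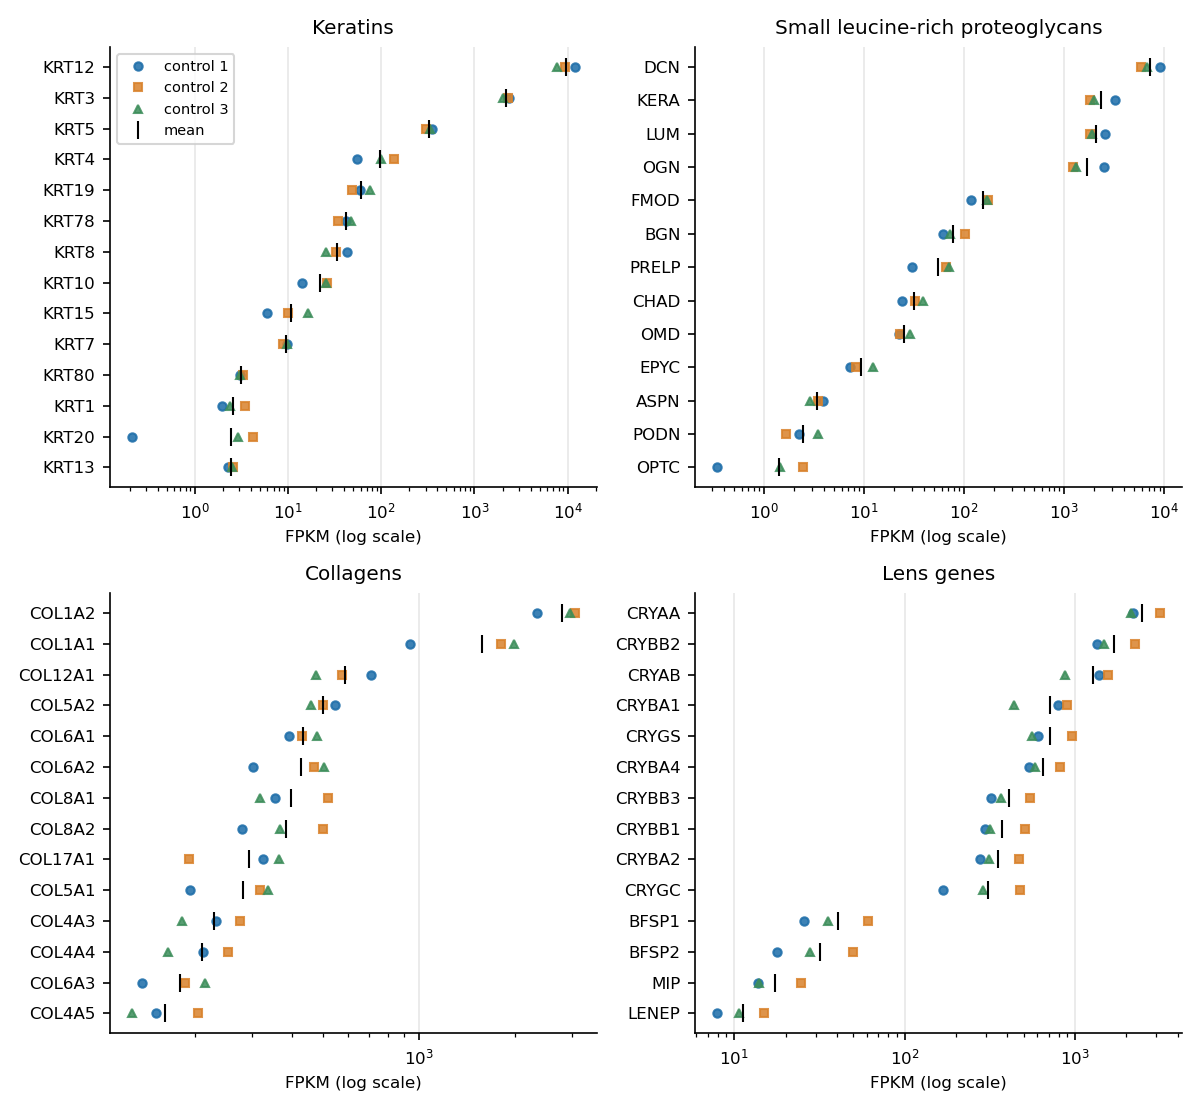
FPKM (log scale) of up to 14 leading members of 4 families with a mean of 1 FPKM or more, by control library, with the mean as a black bar. KRT12 and KRT3 stand apart from the other keratins, DCN, KERA, LUM and OGN from the other small leucine-rich proteoglycans, and nearly all lens genes have their highest value in control 2.

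Stromal genes made up the largest share of the cell-layer lists. The 18 listed keratocyte and stroma genes held 4.71% ± 0.792 of FPKM (5.57%, 4.02% and 4.53%), and all 18 reached a mean of 10 FPKM. ALDH1A1, which the epithelium also makes, is among them. The small leucine-rich proteoglycans held 3.61%, 2.08% and 2.40%, highest in control 1, and 4 members carried nearly all of it. KERA stood at 3268, 1829 and 1979 FPKM, LUM at 2586, 1799 and 1908 FPKM and OGN (osteoglycin, also called mimecan) at 2519, 1239.6 and 1331 FPKM. Each of the 3 was highest in control 1, with the other libraries close to each other. DCN exceeded LUM by a ratio of 3.43 ± 0.163, which differed little between libraries, and LUM was at 0.913 ± 0.106 of KERA. The next members were far lower. FMOD (fibromodulin) stood at 118, 175 and 171 FPKM, BGN (biglycan) at 61.7, 101 and 71.9 FPKM and PRELP (a heparin-binding member) at 30.2, 65.8 and 70.2 FPKM. These 3 were lowest in control 1, opposite to the 4 abundant members.

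EPYC (epiphycan), KERA, LUM and DCN lie close together on the same strand of the same sequence in the deposited table, over 218.4 kb, with 1 other listed gene between them. The distances between neighbours were 47.1, 45.9 and 34.6 kb. Levels within this cluster were unequal: EPYC stood at 7.19, 8.36 and 12.4 FPKM while the other 3 genes had means of 2359, 2098 and 7207 FPKM.

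Collagens held 1.73% ± 0.164 of FPKM over 43 listed genes, 29 of which reached a mean of 1 FPKM. COL1A2, the alpha 2 chain of type I collagen, the main fibril collagen of the stroma, stood at 2348, 3066 and 2959 FPKM. COL1A1, its partner chain, stood at 938, 1811 and 1979 FPKM. Both were lowest in control 1, and the ratio of COL1A2 to COL1A1 was 2.50, 1.69 and 1.495. KERA and COL1A1 diverged in the same library: KERA was 3.49 times COL1A1 in control 1, against 1.01 and 0.9999 in the others. COL12A1, a fibril-associated collagen, stood at 709, 577 and 479 FPKM, and COL5A2, a chain of type V collagen, which limits fibril diameter, at 548, 502 and 459.7 FPKM. COL6A1 and COL6A2, chains of the beaded type VI filaments, stood at 394, 429.7 and 481 FPKM and 302, 472 and 506 FPKM. COL12A1 and COL5A2 were highest in control 1, while both type VI chains were lowest there. COL13A1 and COL9A1 had a count of 0 in all libraries.

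Other matrix genes held 1.32% ± 0.0684 of FPKM, led by SPARC. SPARCL1, a relative of SPARC, stood at 890.0, 777 and 681 FPKM. TGFBI, the adhesion protein altered in granular and lattice dystrophies, stood at 874, 694 and 694 FPKM. MFAP4, a microfibril protein, stood at 193, 288 and 238 FPKM, and FN1 (fibronectin) at 169.6, 130.5 and 119 FPKM. ANGPTL7, an angiopoietin-like protein of the stroma, stood at 959.6, 773 and 1167 FPKM. SPARCL1, TGFBI and FN1 were highest in control 1, MFAP4 was lowest there and ANGPTL7 was highest in control 3. Genes that build keratan sulfate were of moderate level and held 0.0704% ± 0.00186 of FPKM, with all 14 listed members at a mean of 1 FPKM or more. B3GNT7, a chain-extending transferase, stood at 50.4, 78.7 and 76.7 FPKM, and CHST6, the corneal sulfotransferase, at 28.3, 41.1 and 37.5 FPKM. PAPSS1, which makes the sulfate donor, stood at 83.2, 57.5 and 49.7 FPKM. The first 2 of these were lowest in control 1 and PAPSS1 was highest there. TIMP3, an inhibitor of matrix proteases bound to the matrix, stood at 113, 151 and 124 FPKM and TIMP1 at 100, 115 and 98.7 FPKM. MMP2 (gelatinase A) stood at 90.8, 102 and 116 FPKM, and MMP3, MMP10 and MMP13 had a count of 0 in all libraries.

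Endothelial genes were a small part of the RNA. The 16 listed genes held 0.460% ± 0.0767 of FPKM (0.396%, 0.545% and 0.439%). Of the 13 that reached a mean of 1 FPKM, 10 were highest in control 2, whereas over all genes with that mean 30.3% were. COL8A1 and COL8A2, the chains of type VIII collagen in Descemet's membrane, stood at 356, 521 and 318 FPKM and 279, 503 and 368 FPKM. AQP1, a water channel that keratocytes also make, stood at 789, 1214 and 1055 FPKM. SLC4A11, the membrane transporter mutated in endothelial dystrophy, stood at 119.6, 196 and 145 FPKM. All 4 had their highest value in control 2. ATP1B1, a beta subunit of the sodium-potassium ATPase, stood at 59.2, 82.5 and 61.98 FPKM, and CA2 (carbonic anhydrase 2) at 122, 149 and 97.7 FPKM. ZP4 and CLRN1, further endothelial markers, had a count of 0 in all 3 libraries. COL4A3 and COL4A4, collagen chains of Descemet's and other basement membranes, stood at 231, 276 and 181 FPKM and 211, 254 and 165 FPKM, also highest in control 2.

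A list of enzyme crystallins, which covers those called corneal crystallins and others, held 3.86% ± 0.479 of FPKM. All 16 listed members reached a mean of 10 FPKM. Not all are corneal crystallins, since CRYL1, CRYZ, ASL and GLUL are also in the list. Most members are enzymes, but the small heat shock proteins CRYAB and HSPB1 are included, and CRYAB is also counted with the lens genes. ALDH1A1 stood at 3732, 2874 and 2919.5 FPKM and LDHA, the muscle-type lactate dehydrogenase subunit, at 1782, 1481 and 1414 FPKM. LDHB exceeded LDHA by a ratio of 3.78 ± 0.459, and the order was the same in each library. ENO1 (enolase 1) stood at 2452, 2418 and 1808 FPKM, and GAPDH (glyceraldehyde-3-phosphate dehydrogenase) at 1279, 1372 and 1035 FPKM. Both were lowest in control 3. PPIA (cyclophilin A, a prolyl isomerase) stood at 1398, 1378 and 1113 FPKM. Glycolysis held 2.39% ± 0.313 of FPKM, the pentose phosphate pathway 0.302% ± 0.0276 and the citric acid cycle 0.196% ± 0.00430. The nuclear-encoded subunits of oxidative phosphorylation held 1.83% ± 0.130. SLC2A1, the glucose transporter GLUT1, stood at 145, 198 and 153 FPKM. The next listed aldehyde dehydrogenases were far below ALDH1A1: ALDH1A2, a retinaldehyde dehydrogenase, stood at 54.3, 96.6 and 66.3 FPKM, and ALDH7A1 at 54, 65.5 and 49.5 FPKM. No entry carried the symbol ALDH3A1, so the level of that aldehyde dehydrogenase was not read.

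Antioxidant genes held 0.912% ± 0.0418 of FPKM, and 26 of 27 listed genes reached a mean of 1 FPKM. FTH1 and FTL, the heavy and light chains of the iron store ferritin, stood at 979, 1504 and 1266 FPKM and 383, 534 and 473 FPKM. PRDX1, a peroxiredoxin, stood at 670.1, 517 and 461 FPKM and was highest in control 1. GSTP1 (a glutathione transferase) stood at 366, 555 and 454 FPKM, GPX1 (a glutathione peroxidase) at 381, 425 and 407 FPKM and SOD1 (cytosolic superoxide dismutase) at 378, 336 and 324 FPKM. GSTP1 and GPX1 were lowest in control 1, opposite to PRDX1 and SOD1. In none of the 24 members with a mean of 10 FPKM or more did the highest library exceed the lowest by more than 2-fold. Over all 6906 genes with that mean, 454 or 6.57% did. None did either among 18 citric acid cycle genes and 16 enzyme crystallins, and 1 of 18 glycolysis genes did, so this is not particular to antioxidant genes. Among retinoid genes RARG, a retinoic acid receptor, stood at 108, 107 and 114 FPKM.

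Water channels were led by the pair already named for the epithelium and the endothelium and stroma. AQP3, which also carries glycerol, stood at 181, 192 and 226 FPKM. AQP7, AQP6, AQP8 and AQP9 had a count of 0 in all libraries. Annexins, membrane-binding proteins regulated by calcium, held 0.601% ± 0.0329 of FPKM. ANXA1 stood at 1074, 1338 and 1808 FPKM and ANXA2 at 1128, 965 and 818 FPKM, with ANXA1 highest in control 3 and ANXA2 highest in control 1. S100A10, the partner of ANXA2, stood at 545, 672 and 629 FPKM.

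Ribosomal protein genes held the largest share of FPKM among the gene lists. In CPM, counts per M counts with no division by length, their share was 5.21%, below the 7.02% of the keratocyte and stroma list. The 77 genes listed under a cytosolic ribosomal protein symbol held 12.2%, 14.8% and 15% of FPKM. With all copies described as ribosomal proteins, 947 entries, the share was 17.7%, 21.4% and 21.3% (20.1% ± 2.10). The share was lowest in control 1 on both counts. Of the 73 symbol-bearing genes with a mean of 1 FPKM or more, 58 were lowest in control 1, whereas over all genes with that mean 36.3% were. RPLP1 (a protein of the ribosomal stalk) stood at 3204, 3430.5 and 3107 FPKM and RPS12 at 1385, 2921 and 2953 FPKM. RPL26, of the large subunit, stood at 1659, 2636 and 2622 FPKM, and RPS7, of the small subunit, at 1652, 2503 and 2692 FPKM. RPS12, RPL26 and RPS7 were low in control 1, whereas RPLP1 was lowest in control 3. The single entries named RPL39 and RPL10L had a count of 0, and whether reads of these genes were assigned to copies was not tested. Length moved with the same libraries: among genes with a mean of 10 FPKM or more, the shortest group (median length 1035 bases) lay at a median log2 difference of -0.17 in control 1 from the mean of the others. The longest group (median 4493 bases) lay at 0.07. In control 2 the shift was the opposite, 0.16 for the shortest and -0.13 for the longest group, and in control 3 both lay at 0.05. Without ribosomal entries the shortest group lay at -0.15 in control 1 and 0.14 in control 2. The part of length in the ribosomal difference, and in the control 2 levels of the basal and endothelial genes above and the lens genes below, was not tested.

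Single ribosomal entries are uncertain, since the table lists many near-identical copies among which reads can be split. RPL23A stood at 901, 52.4 and 61.6 FPKM, a ratio of highest to lowest of 17.2. The sum over 48 entries of that family was 2795, 3020.5 and 2734 FPKM, a ratio of 1.10. The entry named RPL17 (gene ID 108175352, deposited as LOC108175352) stood at 91.8, 758 and 758 FPKM, a ratio of 8.25. Over 29 entries of its family the sums were 1577, 1755 and 1719 FPKM, a ratio of 1.11. In both families the single entry was far from even and the family sum was nearly even. RPL35A behaved otherwise: its entry stood at 373, 736 and 1627 FPKM, and the sum over its 8 entries was 379, 738 and 1628 FPKM, low in control 1 and high in control 3 on both counts. RN18S (gene ID 100328976), named for 18S ribosomal RNA but carrying another deposited description, stood at 771, 1928 and 1246 FPKM and is uncertain.

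Transcription factors of the eye surface were led by PAX6, the regulator of eye development, at 336, 289 and 318 FPKM. ELF3, an ETS factor of epithelium, stood at 131, 148 and 113 FPKM and KLF4 at 97.4, 139 and 128 FPKM. KLF5 stood at 81.2, 57.8 and 65.6 FPKM and RARG was named above. Of 33 listed factors 30 reached a mean of 1 FPKM. The list held 0.245% ± 0.0139 of FPKM.

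Markers of other cell types differed widely in their summed level, which was low for immune, vessel, nerve and muscle genes and higher for conjunctival and lens genes. The 15 listed immune genes held 0.00490%, 0.00384% and 0.00518% of FPKM, and CD3E, MS4A1 and S100A8 had a count of 0. CD74, an antigen-presentation chaperone, stood at 11.3, 9.72 and 12.7 FPKM and CD68, a macrophage marker, at 6.81, 5.70 and 8.52 FPKM. The vessel list held 0.00486%, 0.00408% and 0.00483%, and FLT1, FLT4 and ESAM had a count of 0. KDR, a VEGF receptor, stood at 14.8, 14.1 and 16.6 FPKM, PECAM1 at 0, 0.190 and 0 FPKM and VWF at 0.0189, 0 and 0.0268 FPKM. PECAM1 and VWF stayed below 1 FPKM in every library, whereas CDH5, the cadherin of vessel endothelium, stood at 2.63, 2.93 and 4.34 FPKM and EMCN (endomucin) at 5.66, 2.99 and 2.42 FPKM. For melanocytes the share was 0.0126%, 0.0106% and 0.0115%. TYRP1 and PMEL, genes of the melanosome, stood at 26.9, 25.03 and 31.7 FPKM and 27.8, 21.98 and 21.3 FPKM, while TYR (tyrosinase) and SLC45A2 had a count of 0. Nerve and Schwann cell genes held 0.00650%, 0.00655% and 0.00996%. CHAT, which makes acetylcholine and is also known from corneal epithelium, stood at 6.23, 14.5 and 22.5 FPKM, with its low value in control 1. Skeletal muscle genes held at most 0.000330% of FPKM in a library, with CKM, DES and MB at a count of 0. The 12 listed goblet and conjunctival genes held 0.0920%, 0.106% and 0.111% of FPKM, about as much as the tight junction list. Most of it was AGR2, a disulfide isomerase of secretory epithelium, which stood at 326, 382 and 429.5 FPKM. The secreted mucin MUC5AC stood at 0.0964, 0 and 0 FPKM.

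**Figure D3:**
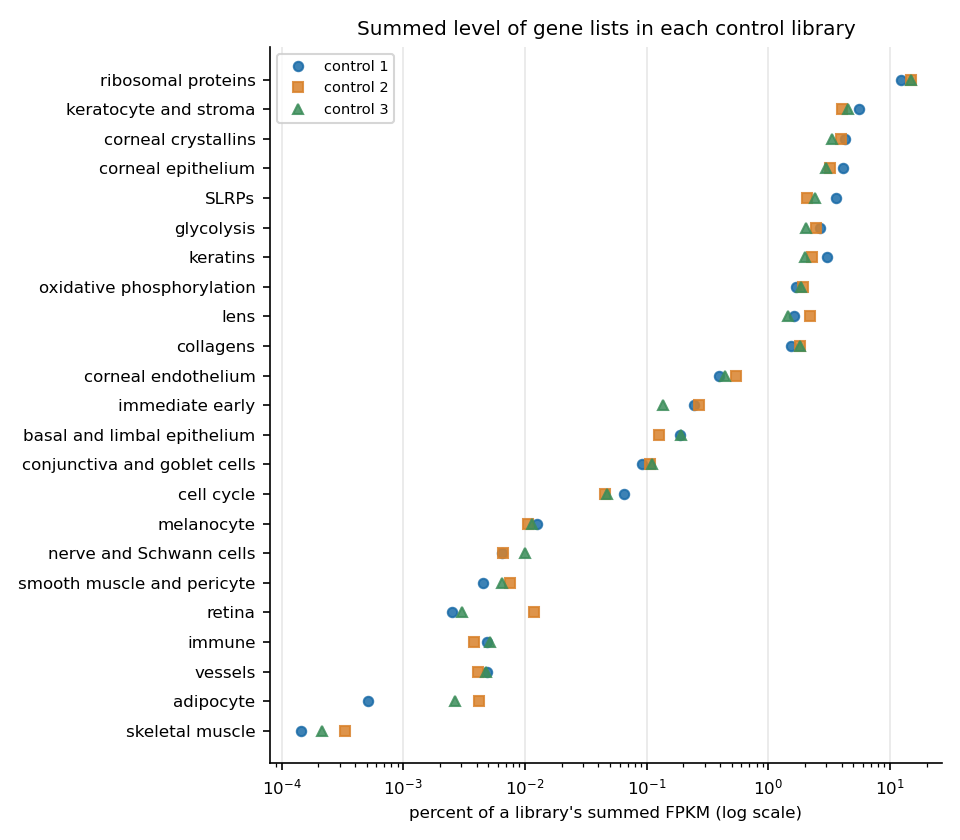
Percent of a library's summed FPKM (log scale) held by each gene list, with 1 point per control library. The corneal crystallin row is the list of enzyme crystallins, in which not all members are corneal crystallins. Ribosomal proteins stand above 12% in each library and the immune, vessel, adipocyte and muscle lists below 0.01%, while the retina list has 1 point, control 2, apart from the others.

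Lens genes were abundant. The 18 listed genes held 1.63%, 2.20% and 1.44% of FPKM, and 15 of the 16 with a mean of 1 FPKM or more were highest in control 2, against 30.3% of all genes. In CPM their share was 0.754%, against 1.76% in FPKM. CRYAA, the alpha A crystallin, a small heat shock protein and lens structural protein, ranked 12 at 2178, 3131 and 2124 FPKM. CRYBB2, a beta crystallin, stood at 1342, 2244 and 1479.5 FPKM, and CRYAB, the alpha B crystallin, which other tissues also make, at 1371, 1567 and 877 FPKM. CRYAA and CRYBB2 were alike in controls 1 and 3 and high in control 2, whereas CRYAB was low in control 3. Markers of lens fibres were present as well. BFSP1 and BFSP2, the beaded filament proteins, stood at 25.5, 61.3 and 35.6 FPKM and 17.7, 50.02 and 27.9 FPKM. MIP, the lens fibre water channel aquaporin 0, stood at 13.8, 24.6 and 13.96 FPKM. All 3 were highest in control 2. CRYGC, a gamma crystallin, stood at 167, 473 and 287 FPKM. The part of lens tissue in these levels was not tested.

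The spread between libraries was modest for most genes. Of 6906 genes with a mean of 10 FPKM or more, the ratio of the highest to the lowest library had a median of 1.32 (quartiles 1.19 and 1.52), and 73.2% stayed within 1.5-fold. Past 2-fold were 454 genes, 6.57%. Without control 1 the count of genes past 2-fold was 103, without control 2 it was 281 and without control 3 it was 307. The share past 2-fold was 6.65% between 10 and 30 FPKM, 6.03% between 30 and 100, 7.88% between 100 and 1000, and 6.33% at 1000 FPKM or more. Across genes, log2(FPKM + 1) correlated at a Pearson r of 0.947 between controls 1 and 2, 0.952 between 1 and 3, and 0.969 between 2 and 3. These values run over 13281 genes of 3 libraries, which are not independent replicates, and describe the libraries only. Of the leading 100 genes of each library, 92 were shared by controls 2 and 3, 87 by controls 1 and 2, and 84 by controls 1 and 3. The biological coefficient of variation that edgeR estimated on the deposited counts was 0.318. Since 1 fragment stood for about 3.82 of these counts, part of the counting error remains in it.

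**Figure D4:**
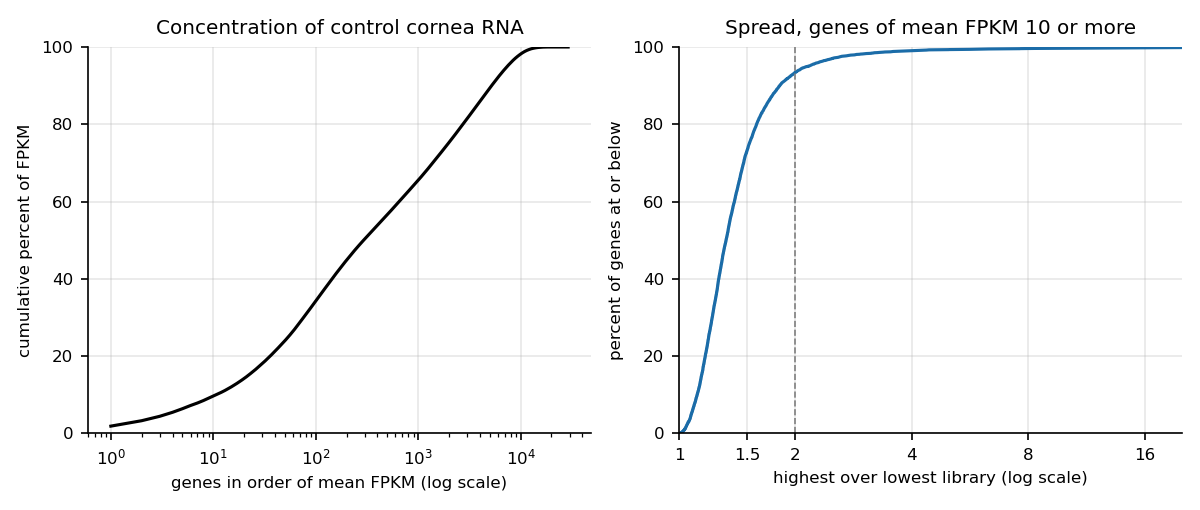
Left, cumulative percent of FPKM over genes ranked by mean FPKM (log scale), which passes 50% at 294 genes. Right, percent of the 6906 genes with a mean of 10 FPKM or more at or below a given ratio of highest to lowest library (log scale), with 2-fold dashed, where 93.4% of genes lie at or below it.

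Genes with the steadiest levels came from several functions. Among genes with a mean of 100 FPKM or more, CYB5A (cytochrome b5, an electron carrier, gene ID 100328912) stood at 119.3, 118.7 and 119.3 FPKM. RPL23 stood at 1618, 1649 and 1645 FPKM and TSC22D3, a glucocorticoid-induced leucine zipper protein, at 314, 316 and 321 FPKM. These 3 varied by less than 3% between the lowest and the highest library. PSMB1, a proteasome subunit, TMEM59, a membrane protein, and PABPC1, the poly(A)-binding protein, stood at means of 132 ± 1.81, 356 ± 5.08 and 159 ± 2.99 FPKM. S100A14 stood at 264 ± 6.18 FPKM and ATP5F1, a subunit of ATP synthase, at 134 ± 2.98 FPKM.

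Control 1 stood apart most often. Each gene past 2-fold between its highest and lowest library was assigned to the library farther from the middle value on a log scale. Of the 6906 genes, control 1 was that library as the higher one in 90 (1.3%) and as the lower one in 208 (3.01%). A library set apart in this way need not differ 2-fold from both others. BCL2L13, a mitochondrial protein of the BCL2 family, stood at 10.4, 88.5 and 92.7 FPKM. EPGN, the epidermal growth factor family ligand epigen, stood at 24.4, 134 and 190.4 FPKM, and LPL (lipoprotein lipase) at 1.497, 21.5 and 11.4 FPKM. RBM12, an RNA-binding protein, had 1 count in control 1 against 2420 and 2348 in the others, and 1 count is less than 1 fragment stands for, so no ratio is given. These 4 genes were low in control 1. NFAT5, the osmotic stress factor, was high there at 37.8, 8.26 and 3.55 FPKM, as were HES1, a Notch target, at 63.3, 35.7 and 26.3 FPKM and MUC4. Cell cycle genes were higher in control 1 as a list. The 30 listed genes held 0.0651%, 0.0458% and 0.0471% of FPKM, and 21 of the 29 with a mean of 1 FPKM or more were highest in control 1, against 38.1% of all genes. PCNA, the DNA polymerase clamp, stood at 61.05, 41.9 and 41.1 FPKM. TOP2A, the mitotic topoisomerase, stood at 10.3, 1.57 and 3.57 FPKM, and MKI67, the proliferation marker Ki-67, at 5.74, 0.748 and 1.99 FPKM. Both were highest in control 1 and lowest in control 2.

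Control 2 was the library set apart among genes past 2-fold as the higher one in 39 genes (0.565%) and as the lower one in 44 (0.637%). Besides lens genes, rod photoreceptor genes were higher in it. SAG, rod arrestin, stood at 0, 9.47 and 0 FPKM. PRPH2, peripherin of outer segments, stood at 0, 5.73 and 0 FPKM and RCVRN, recoverin, at 0, 3.76 and 0 FPKM. The 20 listed retina genes held 0.00250%, 0.0119% and 0.00305% of FPKM, and SAG, PRPH2 and RCVRN had a count of 0 in controls 1 and 3. No listed retina gene reached a mean of 10 FPKM. The retinal and lens levels in control 2 stand beside its endothelial and basal epithelial levels above, and their part in those was not tested. Genes low in control 2 included ITGA2 (integrin alpha 2) at 48.3, 18.99 and 30.9 FPKM and COL7A1 (the anchoring fibril collagen) at 39.7, 19.4 and 31.99 FPKM. UBE2V2, a ubiquitin-conjugating enzyme variant, stood at 19.8, 2.35 and 27.8 FPKM, and IKZF2, a zinc finger factor, at 17.2, 2.25 and 11.3 FPKM.

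Control 3 was the library set apart among genes past 2-fold as the higher one in 28 genes (0.405%) and as the lower one in 45 (0.652%). Immediate early genes, which are induced within minutes of a stimulus, were among the lower ones. The 24 listed genes held 0.247%, 0.270% and 0.136% of FPKM. Of the 16 with a mean of 10 FPKM or more, 7 were past 2-fold between the highest and lowest library, against 6.57% of all genes. FOS, a subunit of the AP-1 transcription factor, stood at 273, 312 and 77.9 FPKM, and FOSB, another subunit, at 34.8, 62.5 and 6.32 FPKM. DUSP1, a phosphatase of MAP kinases, stood at 146, 156 and 43.5 FPKM and ZFP36, which destabilizes mRNA, at 120.0, 142 and 33.2 FPKM. EGR1, a zinc finger factor, stood at 127, 132 and 65.2 FPKM. These 5 genes were lowest in control 3, while CTGF (a matricellular protein) was lowest in control 1 at 81.97, 107 and 95.4 FPKM. SERPINB2, the plasminogen activator inhibitor 2, was high in control 3 at 7.13, 14.5 and 95.8 FPKM, as was RBFOX2, a splicing regulator, at 6.51, 6.99 and 57.6 FPKM. CRYBA1, a beta crystallin, was low there at 795, 897 and 438 FPKM.

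**Figure D5:**
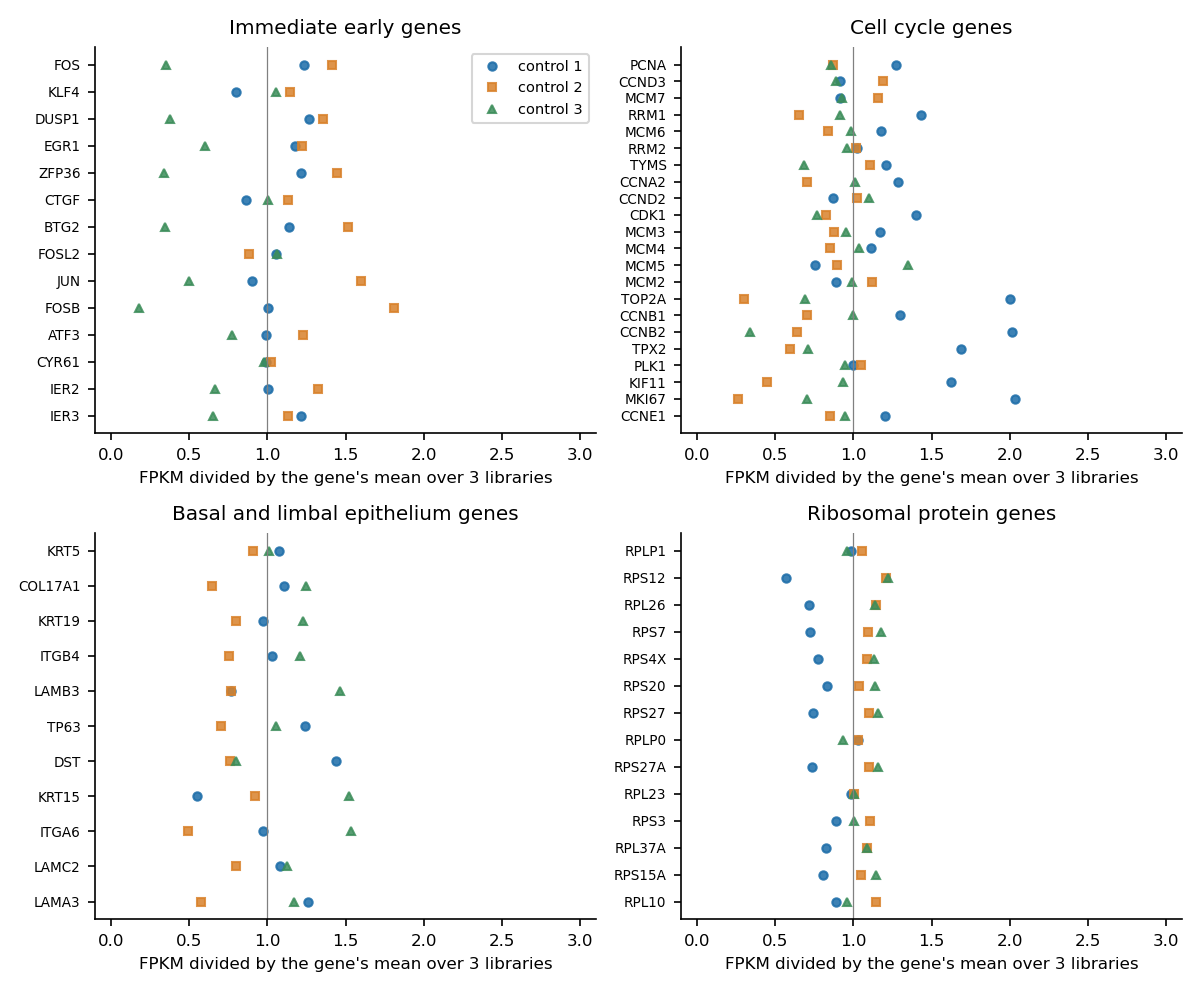
FPKM in each control library divided by the gene's mean over the 3 libraries, for listed genes with a mean of 1 FPKM or more (leading 14, or 22 for cell cycle). FOS, DUSP1, ZFP36, BTG2 and FOSB lie lowest in control 3, TOP2A and MKI67 highest in control 1, COL17A1, TP63 and ITGB4 lowest in control 2, and most ribosomal protein genes lowest in control 1.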

How the data were processed

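RNA of whole cornea was sequenced in 12 libraries, and the 3 labelled as control were used. Extraction used an RNeasy kit and library preparation a SMARTer kit for mRNA, per the labels. For each gene and library the authors deposited 2 values, FPKM and an estimated count, per the file headers. For aligner, counter and genome build the entry is: not given in the sources used here. Positions are therefore not printed. The submitters' processing notes name GRCm38 and mm10, mouse builds, although gene positions in the deposited table are on rabbit chromosome sequences. A count of 0 carried an FPKM of 0.0001 in all 35300 such values and was set to 0. Depth is 44.4 to 56.9 M (mega) counts.

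Genes were ranked by mean FPKM over the libraries. Entries without a symbol took a RefSeq symbol by gene ID where no other entry had that name (700 entries, a step added after the table was seen). Lists were written with earlier results of these data known, as was the choice of libraries. The patterns for collagens, S100 proteins and integrins were tightened after the table was seen, to drop genes whose symbols only begin alike. Named genes were the 40 with the highest mean, up to 6 leading members of each list, members at 0, the member with the largest ratio, the 12 genes with the largest ratio and the 8 with the smallest. BTG2, TOP2A, MKI67, BFSP1, MIP, HES1, ITGA2, COL7A1, RPL35A and others outside that rule were named after their values were seen. Ratios used genes with a mean of 10 FPKM or more, values below 3 fragments being set to that floor, and 2-fold as the threshold. Correlations used log2(FPKM + 1). The coefficient of variation came from edgeR 4.0.16 on the deposited estimated counts, which were whole numbers, with DESeq2 1.42.0 size factors as an alternative. Python 3.11.15, pandas 2.3.3 and R 4.3.3 were used, and the counting of genes past 2-fold was tested on simulated data. No test between groups was made. Sequences were not used here, and some genes are not reported here.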

Additional observations from a re-analysis of the deposited data

How the results depend on the processing

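No result rests on a test, so each alternative moved values only. Of 93 alternatives over 12 results, 74 stayed within the SD between libraries, or within 1.5 times for a count. For the coefficient of variation the limit was the SD of its estimates with each library left out. Many of the 74 could not have moved. A list's share cannot change when FPKM are rescaled. Leaving out 1 library or taking the median shifts the mean share of a list by less than the SD. The 74 are therefore no measure of stability. The count of genes past 2-fold, 454 of 6906, was 900 of 9344 with FPKM rescaled to an equal, larger sum in each library and 964 of 9932 in CPM, where more genes reach the minimum of 10. It was 2433 with a minimum mean of 1, 108 with a minimum of 50, 1850 past 1.5-fold and 68 past 4-fold, and leaving out each library gave 103 to 307. In CPM, which is not divided by length, the leading 100 genes held 25.7% and the leading 1000 held 53.6%. On that scale keratocyte and stroma genes held 7.02%, endothelial genes 0.644%, lens genes 0.754% and ribosomal protein genes 5.21%. The mean correlation between libraries, 0.956, was 0.933 with a pseudocount of 0.1 and 0.983 with no filter, and leaving out each library gave 0.946 to 0.968. The coefficient of variation, 0.318, was 0.640 with no filter on low counts, and leaving out each library gave 0.288 to 0.353. No paired analysis was possible because the libraries form 1 group and no comparison was tested. Depth limits statements on genes below about 0.258 FPKM for a transcript of 1 kilobase, and 3 libraries limit the precision of every SD.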

Other observations

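Clock genes were detected throughout control cornea, with 17 of 18 listed genes at a mean of 1 FPKM or more and a share of 0.0886%, 0.0894% and 0.0995% of FPKM. HLF, a PAR bZIP factor of the clock output, stood at 83.1, 94.8 and 96.3 FPKM, and NR1D2, a nuclear receptor that represses BMAL1, at 77.5, 81.5 and 92.5 FPKM. PER1, a period gene, stood at 24.2, 35.8 and 47.05 FPKM, and NR1D1 at 49.3, 36.3 and 30.7 FPKM. PER1 was lowest in control 1 and NR1D1 highest there. Among light-sensing genes, OPN3 (encephalopsin) stood at 10.5, 18.6 and 15.2 FPKM and OPN5 (neuropsin) at 2.87, 1.97 and 3.89 FPKM, while OPN4 (melanopsin) and OPN1SW had a count of 0 in all 3 libraries.

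Signalling genes were of moderate level. Wnt genes held 0.107% ± 0.00434 of FPKM. CTNNB1 (beta-catenin) stood at 174, 196 and 173 FPKM, DKK2, a Wnt antagonist, at 89.6, 76.9 and 87.4 FPKM and WNT4 at 33.1, 67.5 and 80.1 FPKM, with WNT4 low in control 1. FGFR1, a fibroblast growth factor receptor, stood at 144, 203 and 223 FPKM and EGFR at 48.5, 35.5 and 42.3 FPKM. Of 19 listed cytokine genes 8 reached a mean of 1 FPKM. IL18 stood at 86.6, 57.2 and 78.1 FPKM, and IL1RN, the interleukin 1 receptor antagonist, at 41.6, 60.7 and 52.5 FPKM. IL6, CCL20 and IL33 had a count of 0. The chaperones HSPA8, HSPB1 and HSPA5 stood at 565 ± 46.03, 288 ± 79.8 and 129.6 ± 7.26 FPKM. Antiangiogenic THBS2 and SERPINF1 (pigment epithelium-derived factor) stood at 71.7 ± 7.13 and 58.8 ± 8.49 FPKM, and VEGFA at 14.2 ± 2.87 FPKM. LOC100353295, described as a mitochondrial folate carrier and chosen after its values were seen, stood at 1025, 1437 and 442 FPKM and was lowest in control 3.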
